A study of Mus musculus with 20 samples.

Results

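Whether taking out visceral fat shifts gene expression differently in subcutaneous fat and in liver was examined as an interaction: the change with surgery in subcutaneous adipose tissue (SAT) minus the change with surgery in liver, gene by gene. The genes are those that passed an expression filter in each of the tissues, 15978 of the 19954 genes tested and of 40440 entries in the count table. Male C57BL/6J mice from the Jackson Laboratory, raised on regular chow, underwent surgery when 8 to 9 months old and were then fed a high-fat diet. In the VATR groups the epididymal visceral fat pads were taken out (visceral adipose tissue removal), and in the sham groups the abdomen was opened and the pads were left. The 4 groups were sham liver, VATR liver, sham SAT and VATR SAT, each with 5 libraries of ribosomal-RNA-depleted total RNA from frozen tissue, 20 in all. All groups therefore carry an abdominal incision and a high-fat diet, there is no unoperated or chow-fed group, and the sources used here do not say how long the diet lasted. Nothing in the labels says that a liver and a SAT library of equal number came from 1 mouse, nor that libraries of 1 group are separate mice, so the p-values measure the spread between these libraries.

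Liver and subcutaneous fat both lie downstream of what visceral fat releases: fatty acids and cytokines from the visceral depots reach the liver, and circulating hormones such as insulin, growth hormone and adipokines reach both tissues. Growth hormone acts on hepatocytes and adipocytes through JAK2 and STAT5, which switch on their own feedback inhibitors, Socs2 and Cish. Subcutaneous white fat stores triglyceride and can expand when another depot is missing, while the liver takes up, oxidizes and exports lipid and carries most of the body's conjugation and glutathione-dependent detoxification.

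Total counts ran from 20307159 to 43618452 per library. Alb, serum albumin, stood between 38520 and 66201 CPM (counts scaled to library size, over the 20 libraries together) in liver and between 3.10 and 25.6 CPM in SAT, and Adipoq, adiponectin, between 817 and 1956 CPM in SAT and at or below 0.421 CPM in liver. Several libraries stood apart. The mean log2 CPM of 18 lymphocyte and lymph node markers reached 5.60 in sham SAT library 3 and 5.57 in library 4, while the other 18 libraries lay from -0.64 to 0.93, and Adipoq was lowest in the same pair, at 838 and 817 CPM. Skeletal muscle markers averaged 7.44 in sham SAT library 2, 6.69 and 10.99 in VATR SAT libraries 1 and 2, and at most 4.65 in the rest. Interferon-stimulated genes averaged 6.79 in sham liver library 5 against 4.34 to 5.13 in the other sham livers. In VATR liver library 3 the sex-biased genes Elovl3 and Cyp2b9 were at 94.7 and 22.1 CPM, against at most 6.25 and at least 394 CPM in the other VATR livers and 45.5 to 115 and 31.8 to 227 CPM in sham livers, so that Elovl3 in this library lay within the sham range and Cyp2b9 below it. Results were recomputed without sham SAT 3 and 4 (the lymphocyte-rich pair), without these 2, sham liver 5 and VATR liver 3 (the 4 libraries that stand apart), and without sham SAT 2 and VATR SAT 1 and 2 (the 3 muscle-rich libraries).

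**Figure D1:**
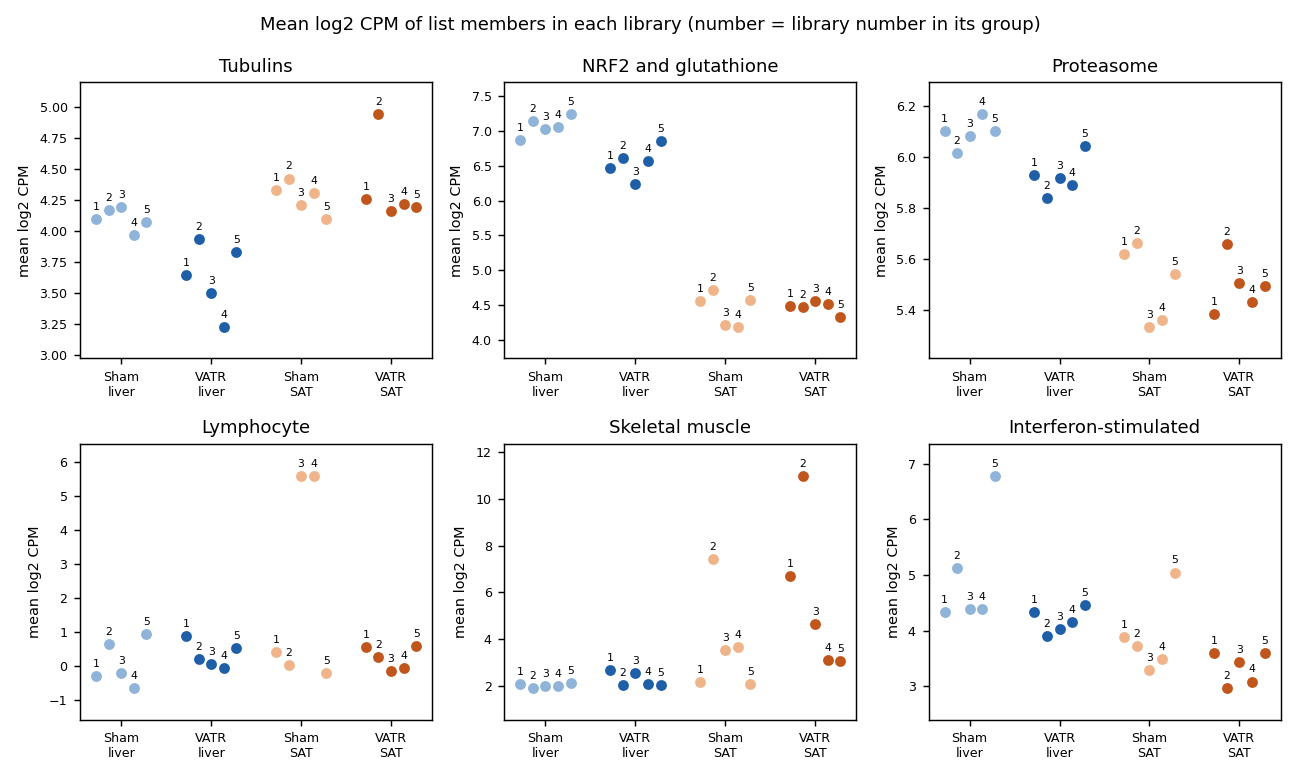
Mean log2 CPM (vertical axes) of the members of 6 gene lists in each library, by group (horizontal axes), with library numbers beside the points. Tubulins and NRF2 and glutathione genes are lower in VATR liver than in sham liver, lymphocyte markers are high in sham SAT 3 and 4 alone, and muscle markers peak at 10.99 in VATR SAT 2.

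No gene passed an adjusted p of 0.05 for the difference in response in edgeR's quasi-likelihood test (Benjamini-Hochberg over all genes tested), where the smallest adjusted p was 0.246. At an unadjusted p of 0.05, 593 of the genes expressed in both tissues (3.71%) had a more positive response in SAT and 1017 (6.37%) a more positive response in liver, 1610 in all (10.1%). DESeq2 on the same counts called 26 of them higher and 66 lower, and 8 of the 66 were lymphocyte markers. Differences are therefore given below as values with their standard errors (SE), and the words rise and fall are kept for a response within a tissue that passed adjustment. Within liver, 27 of all genes tested passed (0.135%), 16 higher and 11 lower after VATR, of which 21 are expressed in both tissues. When the liver libraries were fitted alone, with no SAT libraries to steady the estimate of spread, 0 genes passed. Within SAT 0 genes passed in this fit, with a smallest adjusted p of 0.0747, 2131 genes expressed in both at an unadjusted p under 0.05 (13.3%), and 469 of all genes called by DESeq2. Single libraries decided these counts: the liver count was 107 without VATR liver 3 and 0 without sham liver 1 or 4, and the SAT count was 217, 361, 1 and 520 without sham SAT 1, 2, 3 and 5.

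The responses of the tissues were almost uncorrelated. Across the 15978 genes the liver and SAT responses had a Pearson correlation of 0.0138 and a Spearman correlation of 0.0511 (genes are not independent replicates), and 49.2% had opposite signs. The median size of a response was 0.130 in liver and 0.141 in SAT on the log2 scale, with median SEs of 0.176 and 0.174, so most single responses were smaller than their own error. The difference of the responses had a median size of 0.196 and a median SE of 0.247. Of the 1610 genes at an unadjusted p under 0.05 for the difference, 487 were also under 0.05 in liver alone, 803 in SAT alone, 58 in both and 262 in neither. Genes under 0.05 in both tissues numbered 152. They were 10.6% of the 1428 in liver, while 13.3% of all members were under 0.05 in SAT. They were 7.13% of the 2131 in SAT, while 8.94% of all members were under 0.05 in liver. The overlap was thus no larger than the shares over all members. Of the 152, 95 went in the same direction and 57 in opposite directions.

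**Figure D2:**
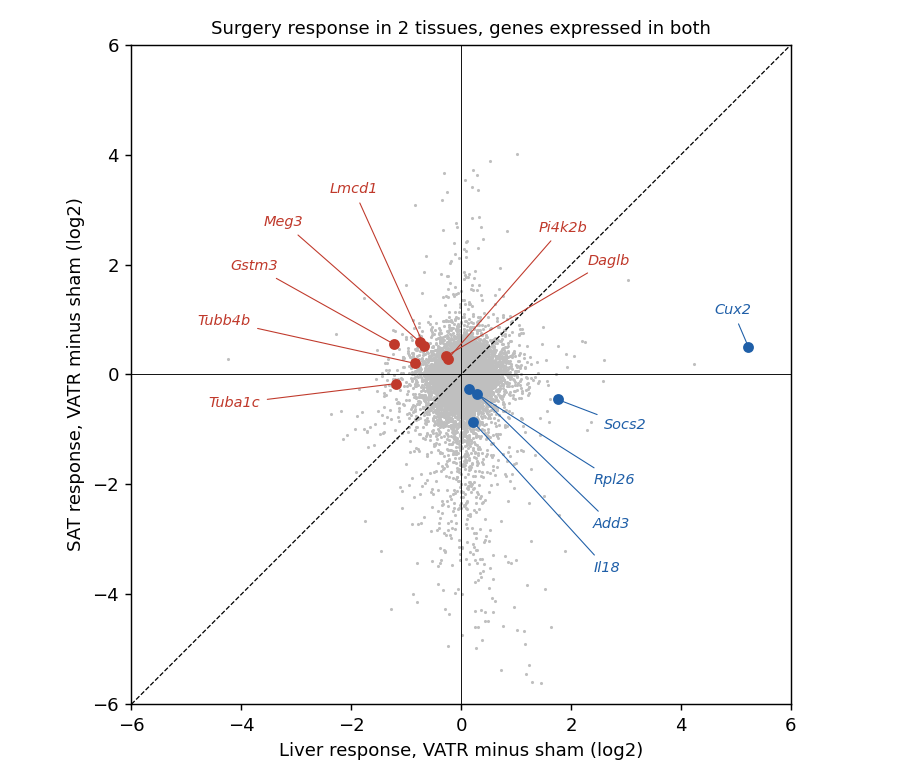
Surgery response (VATR minus sham, log2) in liver (horizontal axis) and SAT (vertical axis) of the genes expressed in both tissues, 1 point a gene, with 1 gene outside the axes. The dashed line marks equal responses, red names lie above it (more positive in SAT), blue names below it, and Cux2 is far to the right at a liver response of 5.22.

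Growth hormone feedback genes stood higher in liver after VATR, and their SAT responses, below 0 with all libraries, were above 0 without sham SAT 3 and 4. Socs2 (chr10:95385362-95417180, minus strand, GRCm38), a suppressor of cytokine signalling that damps the growth hormone receptor, was at 6.30, 4.57, 5.22, 8.76 and 4.84 CPM in sham livers and 22.3, 8.37, 18.2, 19.6 and 31.7 CPM in VATR livers. In SAT it was at 6.94, 7.30, 17.1, 16.4 and 10.3 CPM in sham and 8.10, 7.79, 8.46, 8.06 and 9.92 CPM after VATR. Thus 4 of 5 VATR livers lay above every sham liver, library 2 lay within the sham range, and in SAT the groups overlapped, with the lymphocyte-rich sham libraries 3 and 4 highest. The log2 response was 1.75 ± 0.31 (SE) in liver, a rise in the 20-library fit (edgeR adjusted p = 0.0343, but 0.175 with liver fitted alone, and under 0.05 in 20 of 37 alternatives, from 4.23e-06 to 0.175), and -0.46 ± 0.30 in SAT (adjusted p = 0.559). The difference was -2.21 ± 0.42 (unadjusted p = 4.94e-05, adjusted p = 0.246), and -1.73 without sham SAT 3 and 4, where the SAT response was 0.04 and the liver response 1.77.

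Cish, the cytokine-inducible SH2 protein and the other classical STAT5 feedback gene, gave a like picture with less precision. It averaged 4.71 ± 1.10 CPM (SD, n = 5) in sham liver and 14.5 ± 5.95 CPM in VATR liver, against 4.98 ± 3.47 and 3.66 ± 0.995 CPM in SAT. Its difference of -2.06 ± 0.58 (adjusted p = 0.306) was -1.14 without sham SAT 3 and 4, where Cish stood at 9.56 and 7.59 CPM, and its SAT response went from -0.44 to 0.49. Igfals, the serum carrier subunit for insulin-like growth factors, went from 71.5 ± 12.1 to 118 ± 36.7 CPM in liver and from 89.4 ± 21.0 to 104 ± 14.7 CPM in SAT, a difference of -0.50 ± 0.30 (-0.75 without that pair). In the growth hormone and IGF list 17 of 19 genes were expressed in both tissues, and 1 of them (Igf2r, the mannose 6-phosphate receptor that clears IGF2, at 0.29 ± 0.12, and 0.17 without the 4 libraries that stand apart) was above and 2 (Socs2 and Cish) below 0 at an unadjusted p under 0.05, beside 3.71% and 6.37% of all members. The list median was -0.15, with medians of 0.11 in liver and 0.09 in SAT, and it was 0.07 without sham SAT 3 and 4. Without that pair 6 of the 17 were below 0 at an unadjusted p under 0.05 (35.3%, beside 4.11% of all members) and 1 above. The 6 were Socs2, Cish, Igfals, the growth factor gene Igf1 at -0.49, and the binding protein genes Igfbp5 and Igfbp6 at -0.91 and -0.98, and the 1 above was Igfbp3 at 0.88, of which the Igf1 and Igfbp genes are named after their values were seen.

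Cux2, a homeobox transcription factor gene known as female-biased in mouse liver, spread widely among the VATR livers. In VATR livers it was at 149, 2.497, 2.03, 72.7 and 28.3 CPM, all above the sham livers at 0.935 to 1.87 CPM but libraries 2 and 3 only just. SAT levels were 14.4 to 24.1 CPM in sham and 21.6 to 36.9 CPM after VATR, overlapping. The liver response of 5.22 ± 0.87 passed (adjusted p = 0.0281, 0.254 with liver fitted alone, 3.17e-08 to 0.524 over the alternatives), the SAT response was 0.50 ± 0.69, and the difference was -4.72 ± 1.08 (adjusted p = 0.288).

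Tubulin genes were mostly lower in VATR than in sham liver, and most differed little between the SAT groups. Tubulins are the alpha and beta subunits of microtubules, along which hepatocytes move lipoprotein and secretory vesicles. Tubb4b (chr2:25222160-25224702, minus strand), a broadly expressed beta-tubulin, was at 146, 114, 151, 127 and 124 CPM in sham livers and 84.9, 77.8, 83.7, 49.0 and 73.8 CPM in VATR livers. In SAT it was at 123, 124, 91.1, 93.5 and 107 CPM in sham and 106, 149.9, 114, 125 and 124 CPM after VATR. The liver groups did not overlap and the SAT groups did. In liver it fell by 0.84 ± 0.14 on the log2 scale (adjusted p = 0.0281, 0.167 with liver alone, otherwise down to 0.000175), the SAT response was 0.20 ± 0.14, and the difference was 1.04 ± 0.20 (unadjusted p = 4.01e-05, adjusted p = 0.246).

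Tuba1c, an alpha-tubulin, fell in liver by 1.18 ± 0.19 (adjusted p = 0.0231, 0.219 with liver alone), from 65.5 to 95.1 CPM in sham to 17.7 to 48.9 CPM after VATR. It was under an adjusted p of 0.05 there in 30 of 37 alternatives, from 2.24e-06 to 0.219. In SAT it stood at 14.6 to 21.5 and 14.6 to 17.5 CPM, and the difference was 1.02 ± 0.26. Tubb2a, a beta-tubulin, was at 279 to 369 CPM in sham livers and at 91.4, 218, 58.6, 73.8 and 181 CPM in VATR livers, again without overlap, with a response of -1.38 ± 0.28 (adjusted p = 0.0531). Its SAT levels averaged 43.5 ± 9.57 and 50.5 ± 6.14 CPM, for a difference of 1.60 ± 0.39, and its close neighbour on chromosome 13, Tubb2b, had a difference of 1.40 ± 0.42. Tubb2a and Tubb2b are near-identical in sequence, and the sources used here do not say how reads that match both were counted. Of the 15 tubulins expressed in both tissues (of 16 listed), 11 lay above 0 in the difference (45.9% of all members did). At an unadjusted p under 0.05, 6 were above 0 (40%, beside 3.71% of all members) and 0 below. The list median was 0.44 (-0.03 over all members), from -0.35 in liver and 0.08 in SAT. SAT responses ran from -0.27 to 1.82, with 0 at an unadjusted p under 0.05, and the highest difference was 2.18. The mean log2 CPM of the 15 reached 4.95 in 1 VATR SAT library, against a median of 4.22 in that group and at most 4.43 in sham SAT. Without sham SAT 3 and 4 the median was 0.29. At that p 4 were then above 0 (26.7%, beside 2.56% of all members) and 1 below (6.67%, beside 4.11%). All lists were written with earlier results of these data known, so their directions are not independent evidence.

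**Figure D3:**
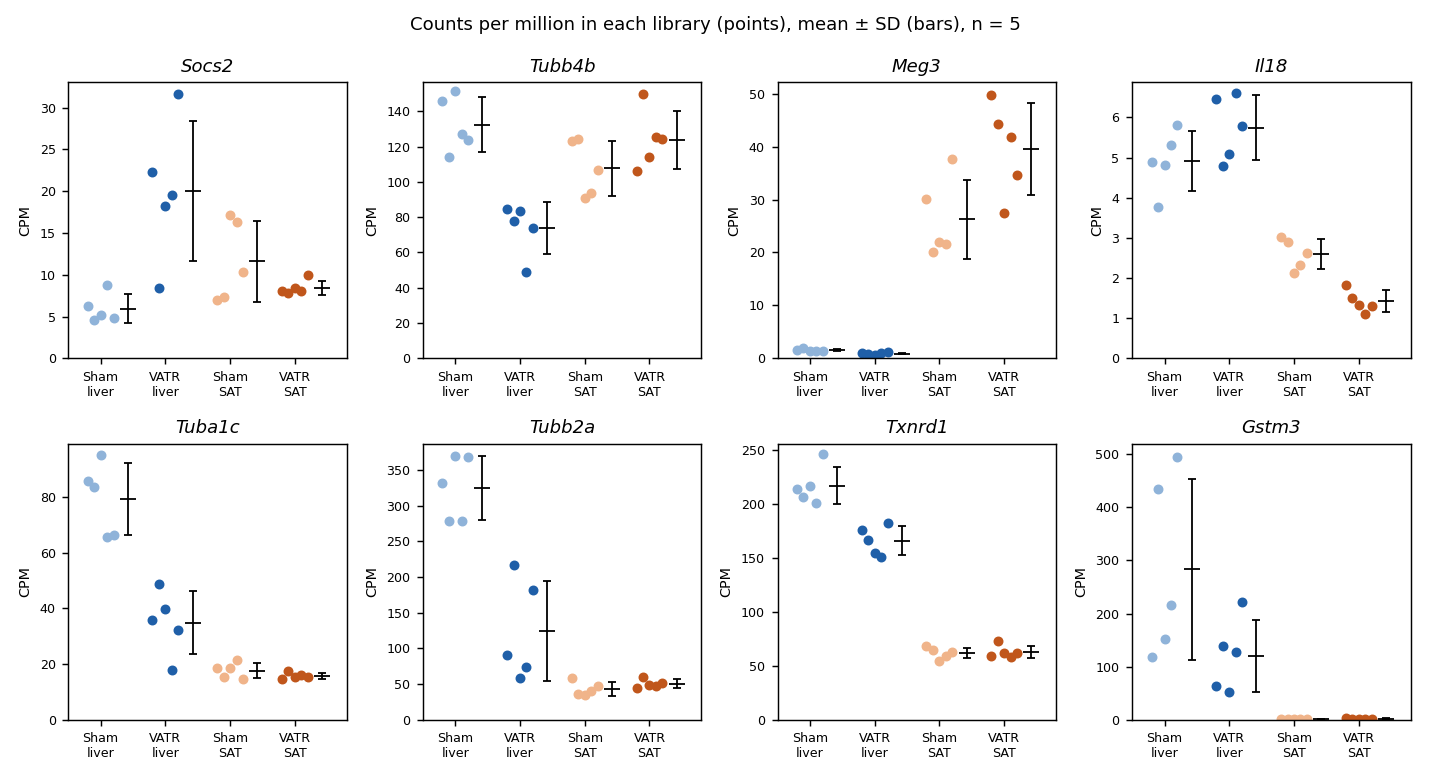
CPM (vertical axes, from 0) of 8 genes in each library, by group (horizontal axes). Points are libraries and bars the mean ± SD of 5. Tubb4b, Tuba1c, Tubb2a and Txnrd1 separate the liver groups and not the SAT groups, Il18 separates the SAT groups alone, and Meg3 lies lower in VATR liver and mostly higher in VATR SAT.

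Antioxidant and glutathione genes were mostly lower in VATR than in sham liver, with SAT levels close between the groups. NRF2, encoded by Nfe2l2, is the transcription factor that binds antioxidant response elements and drives glutathione synthesis, glutathione transferases and thioredoxin reductase. Of 19 such genes expressed in both tissues (of 21 listed), 18 had a negative response in liver (50.1% of all members did) and 17 a more positive response in SAT than in liver. At an unadjusted p under 0.05 were 10 in that direction (52.6%, beside 3.71% of all members) and 0 in the other. The median was -0.42 in liver, 0.03 in SAT and 0.41 for the difference. Averaged by library, the same values gave a mean log2 CPM of the 19 of 6.86 to 7.24 in sham livers and 6.24 to 6.85 in VATR livers. These ranges did not overlap. In SAT the mean was 4.20 to 4.72 in sham and 4.33 to 4.56 after VATR. Without sham SAT 3 and 4 the counts were 8 higher (42.1%, beside 2.56% of all members) and 1 lower (5.26%, beside 4.11%). Without the 4 libraries that stand apart they were 5 higher (26.3%, beside 3.78% of all members) and 0 lower. The median differences were 0.36 and 0.26 in these settings. The list was known from earlier results of these data to be low in VATR liver, so its direction is not independent evidence.

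Among its members, Txnrd1, cytosolic thioredoxin reductase, was at 214, 206, 217, 201 and 246 CPM in sham livers and 176, 167, 155, 151 and 183 CPM in VATR livers, without overlap. In SAT it averaged 61.8 ± 5.02 and 62.8 ± 5.72 CPM. Responses were -0.39 ± 0.08 in liver (adjusted p = 0.0864) and 0.02 ± 0.08 in SAT, and the difference of 0.41 ± 0.12 (unadjusted p = 0.00249) was 0.26 without the 4 libraries that stand apart. Gsr, glutathione reductase, also separated the livers, at 106 to 129 CPM in sham and 86.9 to 95.4 CPM after VATR, with a difference of 0.32 ± 0.10 that was 0.18 without those 4. Ephx1, microsomal epoxide hydrolase, averaged 495 ± 42.8 CPM in sham and 351 ± 56.4 CPM in VATR liver and 51.7 ± 5.94 and 57.1 ± 5.80 CPM in SAT, a difference of 0.64 ± 0.16. The widest difference was that of the glutathione transferase Gstm3, 1.78 ± 0.60, but its sham livers alone spread from 119 to 495 CPM and its SAT levels were 0.977 to 2.53 CPM, and the difference was 1.09 without the same 4. Members without such a gap were Hmox1, heme oxygenase 1, at -0.30 ± 0.37 (-0.70 without the same 4), and the transferases Gsta3 at -0.30 ± 0.46 and Gsta4 at 0.03 ± 0.52. Gsta3 was at -0.77 without sham SAT 3 and 4 and at 0.25 without the muscle-rich libraries.

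Promoter stretches of list members are shown because the antioxidant response element is the sequence NRF2 binds. The letters TGACNNNGC were searched on both strands of the 250 bases before each RefSeq start site (GRCm38.p6), and 5 of the 15 NRF2 and glutathione genes with a promoter entry held them (33.3%), as did 4 of 12 tubulins (33.3%) and 14% of the genes expressed in both tissues that have an entry. The stretches are those of 2 members whose difference was at an unadjusted p under 0.05 (Txnrd1 and Ugdh, UDP-glucose dehydrogenase, at 0.59 ± 0.24), 2 that were not (Gclm, the regulatory subunit of glutathione synthesis, at 0.16 ± 0.15, and Gsta3), and the tubulin Tuba1c. Ugdh, Gclm and Gsta3 were chosen after their values were seen. Each run is 5′ to 3′ on the gene's strand with the match in capitals, and stops at annotated exons.
Txnrd1 (chr10:82859069-82859167, plus strand, an internal start site): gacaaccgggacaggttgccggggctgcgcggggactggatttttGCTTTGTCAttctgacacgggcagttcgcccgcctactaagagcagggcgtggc
Ugdh (chr5:65435950-65436019, minus strand): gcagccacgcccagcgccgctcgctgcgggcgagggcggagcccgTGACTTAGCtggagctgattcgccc
Gclm (chr3:122245378-122245476, plus strand): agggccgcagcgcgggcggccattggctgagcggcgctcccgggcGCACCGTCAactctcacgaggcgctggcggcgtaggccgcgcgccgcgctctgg
Gsta3 (chr1:21240419-21240517, plus strand): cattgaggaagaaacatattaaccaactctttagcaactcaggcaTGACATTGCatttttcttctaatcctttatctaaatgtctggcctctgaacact
Tuba1c (chr15:99029818-99029890, plus strand): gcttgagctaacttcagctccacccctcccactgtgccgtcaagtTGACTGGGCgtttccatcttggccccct
The match reads as TGACNNNGC in Ugdh, Gsta3 and Tuba1c and as its reverse complement in Txnrd1 and Gclm. Both kinds of gene held it, but the split depends on the libraries: without sham SAT 3 and 4 Ugdh was at 0.31 (unadjusted p = 0.105 in edgeR), Gclm at -0.04 and Gsta3 at -0.77 (unadjusted p = 0.0307 in edgeR). A match describes letters, not binding.

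Proteasome subunits mostly had small negative liver responses. The proteasome is the barrel-shaped protease that degrades ubiquitin-tagged proteins, with catalytic 20S subunits (Psma, Psmb) and a regulatory 19S cap (Psmc, Psmd). All 30 listed genes were expressed in both tissues. Of these, 29 had a negative response in liver (50.1% of all members did) and 27 a more positive response in SAT (45.9% of all members). The median was -0.18 in liver, 0.03 in SAT and 0.20 for the difference. Liver responses ran from -0.33 to 0.15, SAT responses from -0.65 to 0.15 and differences from -0.56 to 0.41. The widest single difference was thus a negative one. At an unadjusted p under 0.05 were 7 more positive in SAT (23.3%, beside 3.71% of all members) and 0 in the other direction. Psmc2, an ATPase of the 19S cap, was at 68.8 to 75.7 CPM in sham livers and 52.0 to 61.1 CPM in VATR livers, without overlap, and at 38.2 to 51.7 and 44.6 to 60.6 CPM in SAT, a difference of 0.41 ± 0.14. Psmd11 and Psmd2, non-ATPase cap subunits, had differences of 0.40 ± 0.13 and 0.30 ± 0.13, and Psmc5, another ATPase, 0.32 ± 0.14. Sham SAT libraries 3 and 4 had the lowest proteasome levels in SAT. Without them 2 genes stood above 0 at an unadjusted p under 0.05 (6.67%, beside 2.56% of all members). The median difference was then 0.07, with -0.17 in liver and -0.11 in SAT, and Psmc2, Psmc5 and Psmd2 were at 0.25, 0.15 and 0.14.

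**Figure D4:**
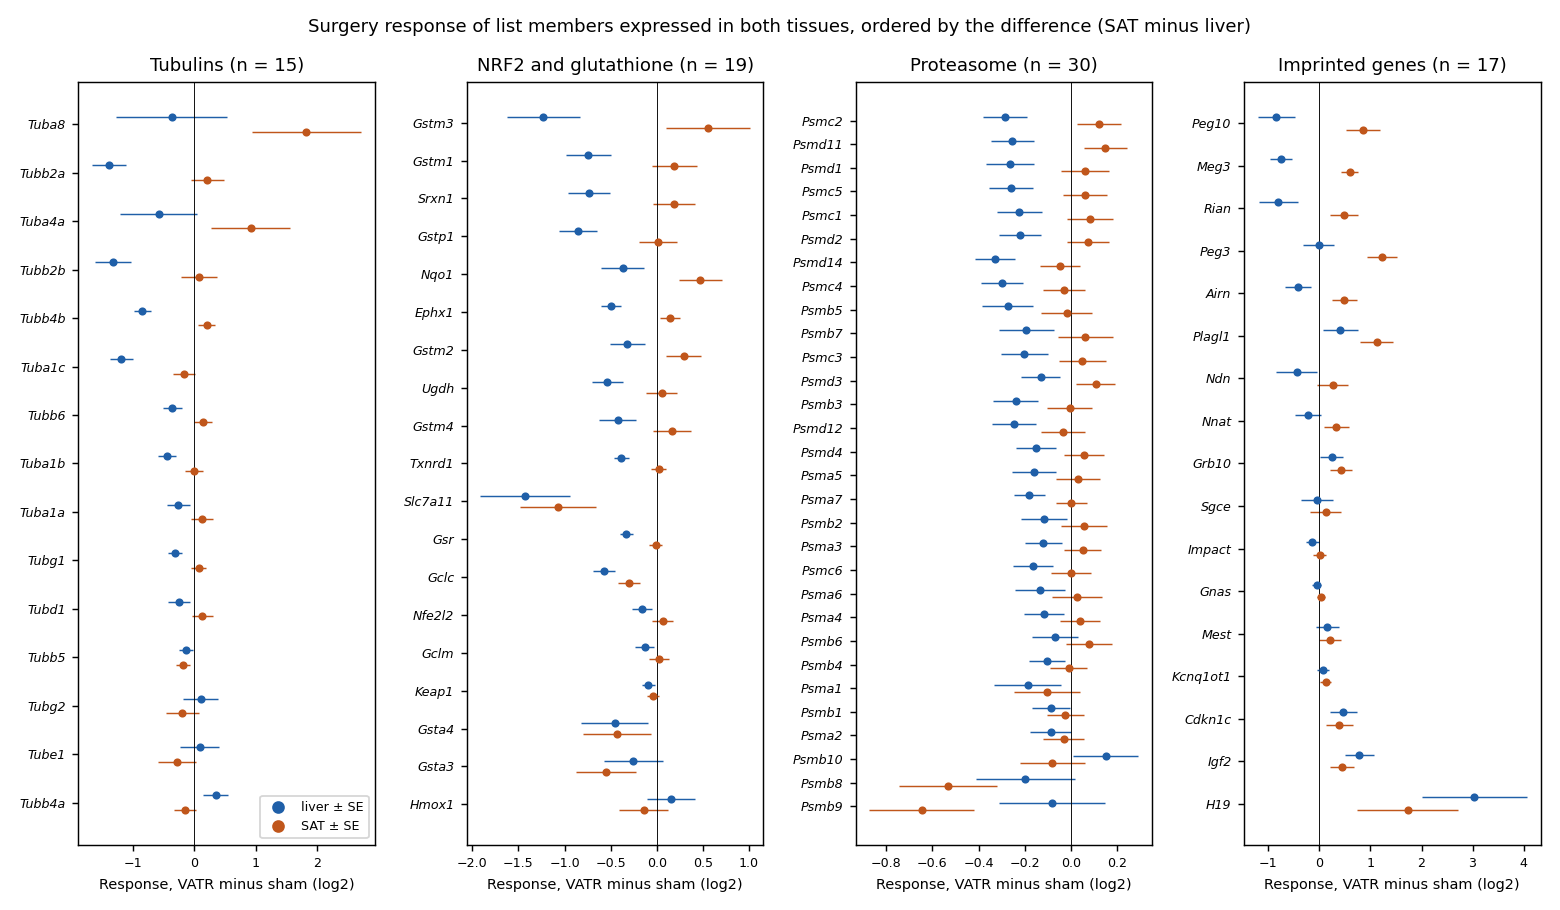
Liver (blue) and SAT (orange) responses (VATR minus sham, log2, ± SE; horizontal axes) of every tubulin, NRF2 and glutathione, proteasome and imprinted gene expressed in both tissues (vertical axes), ordered within each list by the difference. In the first 3 lists the blue points lie mainly left of 0 and the orange points mostly around it, and in the imprinted list all 17 orange points lie right of 0.

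Imprinted genes, which are expressed from only the maternal or the paternal copy and are many of them growth regulators, leaned upward in SAT. Of 17 expressed in both tissues (of 25 listed), all 17 had a positive SAT response (45.2% of all members did), with a median of 0.42, while the liver responses had a median of -0.05 and went down for 10 and up for 7. The difference had a median of 0.18. It was above 0 for 14, with 5 at an unadjusted p under 0.05 (29.4%, beside 3.71% of all members) and 0 below. Without sham SAT 3 and 4 it was above 0 for 10, 5 of them at that p (29.4%, beside 2.56% of all members). The median difference was then 0.24 and the SAT median 0.28, and without the muscle-rich libraries the median difference was 0.48. Leaving out 1 library gave medians from 0.12 (without sham SAT 3) to 0.45 (without VATR liver 2). Meg3 (chr12:109541001-109571726, plus strand), a maternally expressed long non-coding RNA, was at 1.54, 1.94, 1.39, 1.45 and 1.462 CPM in sham livers and 0.956, 0.809, 0.718, 0.936 and 1.16 CPM in VATR livers, without overlap. In SAT it was at 30.1, 20.1, 22.0, 21.5 and 37.7 CPM in sham and 49.7, 44.2, 27.5, 41.9 and 34.6 CPM after VATR, where 3 of 5 lay above every sham library. Its responses were -0.75 ± 0.22 in liver (adjusted p = 0.27) and 0.59 ± 0.17 in SAT (adjusted p = 0.156), opposite in sign, and the difference was 1.34 ± 0.28 (unadjusted p = 0.000112, adjusted p = 0.288).

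Rian, a non-coding RNA of the same imprinted cluster on chromosome 12, had a difference of 1.29 ± 0.47, at 0.278 to 0.786 CPM in sham and 0.120 to 0.536 CPM in VATR livers and 7.86 to 16.9 against 13.0 to 19.2 CPM in SAT. Peg10, a paternally expressed gene derived from a retrotransposon, averaged 4.54 ± 1.88 and 2.49 ± 1.53 CPM in liver. In SAT Peg10 was at 10.5 to 21.3 CPM in sham and 24.1 to 34.2 CPM after VATR, without overlap, and its difference of 1.70 ± 0.50 was 1.09 without the 4 libraries that stand apart. Peg3, a paternally expressed zinc finger gene, was close between the liver groups at 10.2 ± 1.91 and 10.1 ± 2.13 CPM and averaged 202 ± 84.3 against 473 ± 179.7 CPM in SAT, a difference of 1.24 ± 0.43. In VATR SAT library 3 Peg3 was at 181 CPM, within the sham range of 101 to 295, and the other 4 VATR libraries were at 453 to 645 CPM. At the far end of the list were H19, a maternally expressed non-coding RNA, at -1.31 ± 1.37, and Igf2, its growth factor neighbour, at -0.34 ± 0.37, both chosen after their values were seen.

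Interleukin 18 separated the SAT groups and not the liver groups. Il18 (chr9:50554827-50581840, plus strand) encodes a cytokine that inflammasomes cut to its active form. It was at 3.02, 2.89, 2.13, 2.33 and 2.62 CPM in sham SAT and 1.83, 1.51, 1.34, 1.09 and 1.31 CPM in VATR SAT. In liver it was at 4.89, 3.78, 4.83, 5.31 and 5.81 CPM in sham and 6.47, 4.78, 5.09, 6.60 and 5.80 CPM after VATR. The SAT groups did not overlap and the liver groups did. The SAT response was -0.87 ± 0.16 (adjusted p = 0.12), the liver response 0.22 ± 0.16, and the difference -1.10 ± 0.23 (unadjusted p = 0.000132, adjusted p = 0.288). Il18 was lowest among the sham SAT libraries in the lymphocyte-rich libraries 3 and 4, and without them its difference was -1.25.

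The rest of the inflammasome list leaned the same way with all libraries. Of 15 genes expressed in both tissues, 3 were below 0 at an unadjusted p under 0.05 (20%, beside 6.37% of all members) and 0 above. The list median was -0.48 (-0.06 in liver, -0.31 in SAT). Those 3 were Il18, Il18r1 and Nlrc4. Il18r1, a receptor chain for the cytokine, was at 37.7 and 24.9 CPM in sham SAT 3 and 4 and at 0.915 to 3.92 CPM in the other 8 SAT libraries, and its difference of -2.62 ± 0.93 was -0.37 without that pair. Nlrc4, an inflammasome sensor, went from -0.95 ± 0.45 to -0.29 and Gsdmd, the pore protein through which the cytokine leaves the cell, from -0.48 ± 0.25 to -0.12. Without the pair the list median was -0.05, with 1 gene below 0 at an unadjusted p under 0.05 (6.67%, beside 4.11% of all members).

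Lymphocyte genes had the most negative median of the 28 lists. Of 18 markers expressed in both tissues (of 22 listed), all 18 were below 0. At an unadjusted p under 0.05 were 15 (83.3%, beside 6.37% of all members), and the median was -3.96 (0.27 in liver, -4.10 in SAT). The B cell genes Ms4a1, Cd79a and Cd79b had differences of -6.63 ± 1.55, -6.07 ± 1.51 and -5.34 ± 1.32, and Pou2af1, a B cell transcriptional coactivator, -6.22 ± 1.39. These values rested on sham SAT 3 and 4: Cd79a was at 80.8 and 89.1 CPM in that pair and at 0.365 to 1.62 CPM in the other 8 SAT libraries. Without the pair 9 markers lay above and 9 below 0, with a median of -0.02. At an unadjusted p under 0.05, 2 were then below 0 (11.1%, beside 4.11% of all members). Cd79a was at -0.997 and Ms4a1 at -1.65. Stab2, a scavenger receptor of sinusoidal endothelium, followed the same pair, at 26.5 and 64.2 CPM against 1.50 to 5.65 CPM in other SAT libraries, and its difference of -2.77 ± 1.03 became 0.61 without them. In such bulk samples fewer cells of a type and less RNA per cell cannot be told apart.

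Skeletal muscle and interferon genes likewise followed single libraries. All 6 muscle markers expressed in both tissues (of 22 listed) had positive differences, with a median of 3.10 and 0 at an unadjusted p under 0.05. That median was -0.53 without VATR SAT 2 and 0.37, with 4 of 6 above 0, without the 3 muscle-rich libraries. Neb, the giant thin-filament protein of muscle, was at 3119 CPM in VATR SAT 2, 232 CPM in sham SAT 2 and 12.0 to 146 CPM in the other SAT libraries, and its difference of 3.22 ± 1.58 was -0.26 without VATR SAT 2. Of the 25 interferon-stimulated genes all 25 had negative responses in liver and in SAT, with medians of -1.28 and -0.68, and the difference had a median of 0.52 with 0 at an unadjusted p under 0.05. Rsad2, the antiviral enzyme viperin, was at 308 CPM in sham liver 5 and 76.9 CPM in sham SAT 5. Without the 4 libraries that stand apart the medians were -0.38 in liver, -0.97 in SAT and -0.62 for the difference. At an unadjusted p under 0.05, 3 genes were then below 0 (12%, beside 4.11% of all members). These were Ifit3, Isg15 and Zbp1, named after their values were seen. That setting left out sham liver 5 but kept sham SAT 5, the highest of its group for Rsad2 (next library at 21.2 CPM). The median difference was -0.28 without sham liver 5 alone. Without the same 4, Rsad2 was at -0.27 in place of 1.66 ± 0.94.

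A few genes had opposite responses that were each at an unadjusted p under 0.05 in both tissues. Among the 57 such genes, 26 were lower in liver and higher in SAT and 31 the reverse. Pi4k2b, a phosphatidylinositol 4-kinase, was at 36.2 to 40.6 CPM in sham and 28.6 to 36.7 CPM in VATR livers, and at 11.4 to 14.3 and 14.3 to 16.9 CPM in SAT, for responses of -0.24 ± 0.08 and 0.28 ± 0.08 (the latter 0.19 without sham SAT 3 and 4). Lmcd1, a LIM-domain cofactor, was at 0.940 to 2.04 and 0.718 to 1.31 CPM in liver and at 7.24 to 9.04 and 10.3 to 12.6 CPM in SAT, for responses of -0.67 ± 0.19 and 0.51 ± 0.17. For Lmcd1 and Pi4k2b the SAT groups did not overlap and the liver groups did. Daglb, a diacylglycerol lipase that makes the endocannabinoid 2-arachidonoylglycerol in some cells, had a difference of 0.61 ± 0.13, and Jpt2 0.58 ± 0.14. In the reverse direction Add3, a cytoskeletal adducin, averaged 21.4 ± 1.22 and 26.3 ± 3.29 CPM in liver and 94.0 ± 15.3 and 73.5 ± 4.68 CPM in SAT, a difference of -0.65 ± 0.15, where the SAT response of -0.36 was -0.21 without sham SAT 3 and 4. Rpl26, a ribosomal protein gene with many processed copies that may share its reads, had a difference of -0.42 ± 0.09. Cabyr, a calcium-binding protein gene best known from sperm, averaged 11.1 ± 3.86 and 7.32 ± 2.39 CPM in liver and 0.976 ± 0.183 and 1.88 ± 0.409 CPM in SAT, a difference of 1.56 ± 0.35.

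Other genes had responses of the same sign at an unadjusted p under 0.05 in each tissue, 37 above and 58 below 0. Arhgap6, a GTPase-activating protein gene, was at 9.70 to 13.8 CPM in sham and 16.6 to 20.0 CPM in VATR livers and at 11.6 to 15.5 and 15.9 to 17.5 CPM in SAT, without overlap in either tissue. Its rise of 0.59 ± 0.10 in liver (adjusted p = 0.0335, 0.184 with liver alone) stood beside 0.36 ± 0.10 in SAT. The liver response was under an adjusted p of 0.05 in 20 of 37 alternatives, from 0.000416 to 0.184. Cpsf2, a subunit of the pre-mRNA cleavage complex, likewise did not overlap in either, at -0.33 ± 0.07 in liver and -0.24 ± 0.07 in SAT (-0.14 without sham SAT 3 and 4). Serp1, a stress-associated protein of the endoplasmic reticulum, fell in liver by 0.46 ± 0.08 (adjusted p = 0.0343, 0.184 with liver alone) beside a SAT response of -0.27 ± 0.08 (-0.14 without the muscle-rich libraries). Its liver response was under an adjusted p of 0.05 in only 16 of 37 alternatives, from 0.000175 to 0.184. Ephb4, a receptor tyrosine kinase of veins, was at 0.36 ± 0.12 and 0.39 ± 0.12 (the latter 0.25 without sham SAT 3 and 4), and C1galt1, which builds O-linked glycans, at -0.25 ± 0.08 in each tissue. Samd9l, an interferon-inducible gene, was at -0.62 ± 0.19 and -0.57 ± 0.19, and its liver value was -0.25 without the 4 libraries that stand apart.

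Metabolic lists had medians near 0 with all libraries, and their sign depended on which SAT libraries were kept. Fatty acid and triglyceride synthesis (20 genes), fatty acid oxidation (19), cholesterol synthesis (21), lipolysis and lipid droplet genes (15), fatty acid uptake (10) and insulin signalling and glucose genes (17) had median differences of 0.05, 0.02, 0.04, 0.03, -0.01 and -0.06. Each of these medians changed sign in 3 or more alternative settings. Without the 3 muscle-rich SAT libraries they were 0.27, 0.21, 0.10, 0.23, 0.25 and 0.10, while the median over all members went from -0.03 to 0.05. Without sham SAT 3 and 4 they went the other way, to -0.14, -0.24, -0.02, -0.27, -0.30 and -0.21, with -0.02 over all members. Vldlr, a lipoprotein receptor, and Fabp5, a fatty acid binding protein, leaned toward liver, with liver levels of 11.1 ± 5.04 and 24.8 ± 9.59 CPM and of 9.12 ± 3.88 and 24.1 ± 15.6 CPM and differences of -1.02 ± 0.43 and -1.38 ± 0.59. Fgf21, a hormone that the fasting liver releases, had a difference of 1.28 ± 0.60, at 0.225 to 1.58 CPM in SAT, and 0.73 without the muscle-rich libraries.

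The clock and stress lists were mixed. Of 19 circadian clock genes 2 were above 0 at an unadjusted p under 0.05 (10.5%, beside 3.71% of all members) and 0 below. The list median was 0.05. Those 2 were Clock and Arntl, which encode the partners of the activating clock complex, at 0.45 ± 0.16 and 1.05 ± 0.50, with lower liver levels after VATR (72.2 ± 8.87 to 56.6 ± 6.28 CPM for Clock and 12.7 ± 6.19 to 4.85 ± 2.24 CPM for Arntl). Per3, a clock repressor gene, pointed the other way at -0.68 ± 0.39, and was at -0.21 without the 3 muscle-rich SAT libraries. Without sham SAT 3 and 4, 0 clock genes were above and 1 below 0 at that p (5.26%, beside 4.11% of all members). The list median was then 0.0079 and Clock was at 0.31. Without the 4 libraries that stand apart 2 were above (10.5%, beside 3.78% of all members) and 1 below. The sources used here do not give the time of day of tissue collection, and its part in these values was not tested. Among 21 immediate early genes 2 were above 0 at an unadjusted p under 0.05 (9.52%, beside 3.71% of all members) and 0 below. They were Dusp1, a phosphatase of MAP kinases, at 0.80 ± 0.23, and Atf3, a stress-induced transcription factor, at 1.26 ± 0.57 (0.66 without the 4 libraries that stand apart). Thbs1, thrombospondin 1, was the 1 matrix gene of 27 at an unadjusted p under 0.05 (3.7%, no more than the 3.71% of all members). It was at 1.18 ± 0.55 (0.67 without those 4 libraries), and the matrix median of 0.22 was -0.33 without them. Among 23 unfolded protein and integrated stress genes 21 were above 0, with medians of 0.25 for the difference, -0.22 in liver and -0.0024 in SAT. At an unadjusted p under 0.05 was 1 (Atf3, 4.35% of the list beside 3.71% of all members). Without the 4 libraries that stand apart 7 of the 23 (30.4%, beside 3.78% of all members) were above 0 at that p, with a median of 0.31. Among them were the endoplasmic reticulum factors Manf at 0.82 and Hyou1 at 0.70 (chosen after their values were seen). Without sham SAT 3 and 4 the count was 1 and the median 0.15.

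Lists that mark cell types and mitochondria had medians whose sign or size depended on the libraries kept. The 15 mitochondrially encoded genes had a median difference of -0.11 with all libraries, -0.38 without sham SAT 3 and 4 and 0.16 without the muscle-rich libraries. The 30 nuclear genes of oxidative phosphorylation had a median of 0.07 with 25 above 0, which turned to -0.17 with 1 above 0 without sham SAT 3 and 4, and to 0.24 with all 30 above 0 without the muscle-rich libraries. The median of 10 adipocyte markers was -0.02, -0.35 and 0.27 in the same order. Cell cycle genes (24) had a median of -0.06 with 10 above 0, against 0.48 with all 24 above 0 without sham SAT 3 and 4 and -0.28 without the muscle-rich libraries. For 20 macrophage and inflammation genes the median was 0.26, and -0.13 without the 4 libraries that stand apart. Erythroid markers (8) were at -0.14, and at -0.48 without sham SAT 3 and 4. Endothelial (14), hepatocyte (7) and keratinocyte and mammary markers (5) had medians of 0.19, 0.16 and 0.15, which were 0.07, 0.22 and -0.02 without the 4 that stand apart. With all libraries, 1 endothelial gene (Stab2, below 0, 7.14% of the list beside 6.37% of all members) and 0 genes of the other 8 lists were at an unadjusted p under 0.05.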

How the data were processed

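The authors deposited raw counts per gene for 20 libraries. Per the submitters' processing notes, reads were handled with bcl2fastq, STAR 2.5.1a, Subread and featureCounts 1.46 on GRCm38; the sources used here do not give the annotation, strand setting or treatment of multi-mapping reads. Of 40757 entries, 317 exact repeats were dropped. Groups came from sample titles. All 20 libraries were fitted together in edgeR 4.0.16 (R 4.3.3): filterByExpr by group, TMM, 4 group means, robust quasi-likelihood F-tests of the liver response, the SAT response and their difference (SAT minus liver), with Benjamini-Hochberg adjustment over 19954 genes and a threshold of 0.05. Errors are SE from the F statistic or SD over 5 libraries. CPM are TMM-scaled over all 20 libraries, so they differ from values scaled within a tissue. Genes expressed in both tissues passed filterByExpr in liver and in SAT. Total counts were 20307159 or more per library, so a gene at 1 CPM rests on about 20 reads in the shallowest library.

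Named genes were Socs2, Tubb4b, Meg3 and Il18, the 6 smallest p each way among genes of at least 1 CPM in each tissue without clone-style names, the 6 leading genes with opposite and with equal signs in the tissues, and up to 4 members with the smallest p from each of 28 lists; the text gives part of these. Members, lists and rules were chosen with earlier results of these data known. Coordinates came from GENCODE M21 and promoters from RefSeq. The fit was run on simulated counts drawn gene by gene with no library set apart, so that run does not cover the libraries that stand apart here. Alternatives used DESeq2 1.42.0 and limma 3.58.1, other normalizations and filters, replicate blocks, and leaving out libraries; 2 sets of left-out libraries (the 4 that stand apart and the 3 rich in muscle RNA) were chosen after seeing the data. The sources used here name no sequencing batch. Some named items are not reported here.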

Additional observations from a re-analysis of the deposited data

Results flagged for a closer look

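Among 224 combinations of a named gene and a group, 17 held a library whose gap to its nearest neighbour was more than 0.71 of the group's range; chance flags about 1 in 20 groups. Sham liver library 5 was the highest of its group for Rsad2 (308 CPM), Samd9l (117 CPM), Thbs1 (36.8 CPM) and Atf3 (18.2 CPM), and sham SAT library 5 for Rsad2 (76.9 CPM). VATR SAT library 2 was the highest for Neb (3120 CPM) and Txnrd1 (72.7 CPM), and sham SAT library 2 was the highest for Neb (232 CPM) and the lowest for C1galt1 (21.7 CPM). In sham liver, library 2 was highest for Meg3 (1.94 CPM) and lowest for Psmc5 (56.2 CPM), library 1 lowest for Rpl26 (86.6 CPM) and library 3 lowest for Peg3 (6.87 CPM). In VATR liver, library 3 was lowest for Add3 (20.5 CPM), library 2 lowest for Igfals (53.6 CPM) and library 5 highest for Ephx1 (448 CPM). VATR SAT library 5 was lowest for Atf3 (7.49 CPM). The difference between the tissues itself passed adjustment for 0 genes in edgeR.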

How the results depend on the processing

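For the difference, 0 genes were called higher and 0 lower, with 721 and 1300 of all genes tested at an unadjusted p under 0.05. DESeq2 called 31 and 93, leaving out the 4 libraries that stand apart gave 0 and 1 (Pla2g16), and leaving out single libraries gave 0 to 3 higher (Slc35e3, Pitx3 and Tmigd1 without VATR liver 3) and 0 to 1 lower (Fut8 without sham liver 2, Igkv8-19 without sham SAT 5). The 1300 became 690 with limma-voom, 729 with sample weights, 715 with 1 weight per tissue, 841 with at least 1 CPM in 5 libraries of each tissue, 790 without sham SAT 3 and 4, 801 without the 4 that stand apart and 897 to 1761 without single libraries. The 721 became 553 to 973 without single libraries.

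The liver count of 27 became 96 with DESeq2, 182 with sample weights, 64 with 1 weight per tissue, 13 with RLE, 17 with upper quartile scaling, 5 with no filter, 15 with the 1 CPM filter, 13 at a log2 response of at least 1, 142 without the 4 that stand apart, 0 without the 3 muscle-rich libraries, 0 with liver fitted separately and 0 to 107 without single libraries. The SAT count of 0 became 469 with DESeq2, 1 without sham SAT 3 and 4, 2 without the muscle-rich libraries and 0 to 520 without single libraries. Deviations of equal-numbered libraries correlated over 0.1 in 8 of 30 pairs, and in 4 of the 5 pairs of sham and VATR liver (-0.0279 to 0.203, with 3 of 5 best with their own number). The liver and SAT pairs ran from 0.038 to 0.101 in VATR and from -0.181 to 0.108 in sham. What lies behind these correlations was not tested. The numbers were not taken to pair the samples because the labels do not say that they mark mice. With the library number as a block, 0 genes were called for the difference and 0 for the liver, and with a block of surgery and number 0 were called for the difference and 713 lay below 0 at an unadjusted p under 0.05.

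Of 66 named differences, liver responses and SAT responses, 63 kept their sign under every alternative that gives them. Most of these genes were named for a small p in these same libraries, and the alternatives refit all or most of the same counts. Kept signs are therefore not independent evidence. Stab2 reversed to 0.043 with sample weights, 0.61 without sham SAT 3 and 4 and 0.65 without the 4 that stand apart, Rsad2 to -0.27 without those 4, and Neb ranged from -0.26 (without VATR SAT 2) to 4.82 (without sham SAT 2). Except where fewer libraries or genes entered the fit, the cause was not tested. With 5 libraries a group the median SE of the difference was 0.247.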
